A study of Mus musculus with 18 samples.

Results

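Nuclear receptors are transcription factors that bind DNA through zinc fingers and, in most members, change their activity when a small lipid-soluble ligand enters their ligand pocket. The 36 genes described here are the nuclear receptors of mouse liver outside the circadian REV-ERB pair and the corticosteroid receptors. They were chosen by name, as members of the receptor families below: the PPARs, retinoid X, retinoic acid, thyroid hormone and vitamin D receptors, the LXRs and FXRs, PXR and CAR, the HNF4 proteins and LRH-1, RORα, the TR and COUP-TF orphan receptors, the estrogen, estrogen-related and progesterone receptors, the NR4A group and Nr6a1. All 36 were found by exact symbol among the 50600 genes of the 1 day table and the 17127 genes of the 12 hour table. Of these, 31 of 14266 genes with enough counts to be tested at 1 day, and 32 of 12548 at 12 hours, were receptors of this set.

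Liver RNA of 18 mice was sequenced in groups of 3 after myocardial infarction (MI), made by tying off the left anterior descending coronary artery for good, or after a sham operation that left it open. At 1 day the groups were HMRKO + MI, HMRKO + sham, LC + MI and LC + sham. At 12 hours they were C57 + MI and C57 + sham. The study asked how the liver, and the mineralocorticoid receptor (MR, encoded by Nr3c2) in its hepatocytes, takes part in the response to MI. LC mice are littermate controls with loxP-flanked MR alleles and no Cre. HMRKO mice carry the same alleles and Cre under the albumin promoter, so cells other than hepatocytes keep MR. The labels give C57BL/6 as the strain and post natal week 12 as the age of all mice, and call LC and C57 mice wild type and HMRKO mice MR-/-. The mice were male. The operation of the 1 day MI livers and both times come from the series design, since the sample titles do not state them. Nothing in the labels ties livers of different groups to each other, and p values set differences between groups against the spread of livers within groups.

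In liver, these receptors set much of the metabolic programme. RXRα pairs with PPARα to drive fatty acid oxidation in fasting, with LXRα to drive sterol export and lipogenesis, with FXR to restrain bile acid synthesis, and with PXR and CAR to induce enzymes that clear drugs and bile salts. HNF4α and LRH-1 maintain hepatocyte identity and bile acid genes, whereas COUP-TFs and the TR orphan receptors often occupy the same DNA half-sites and can repress them. In bulk liver, fewer cells of a type and less RNA per cell cannot be told apart.

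Promoter sequences, 250 bases before to 50 after a start site, were available from RefSeq (GRCm38.p6) for 34 of the 36 genes, with 54 start sites. Hnf4g and Thra were not matched. The 4 shown here each have 1 annotated start and belong to receptors that the results turn on: Nr1i3 (CAR) and Nr1h4 (FXR), which rose after MI in LC livers, and Nr2c2 (TR4) and Esrra (ERRα), which moved in HMRKO livers. Capitals mark 5 motifs searched on both strands: the nuclear receptor half-site AGGTCA, the STAT palindrome TTCNNNGAA, the E-box CACGTG, the corticosteroid receptor half-site AGAACA and the cAMP response half-site TGACG.
Nr1i3, chr1:171213720-171214019, plus strand: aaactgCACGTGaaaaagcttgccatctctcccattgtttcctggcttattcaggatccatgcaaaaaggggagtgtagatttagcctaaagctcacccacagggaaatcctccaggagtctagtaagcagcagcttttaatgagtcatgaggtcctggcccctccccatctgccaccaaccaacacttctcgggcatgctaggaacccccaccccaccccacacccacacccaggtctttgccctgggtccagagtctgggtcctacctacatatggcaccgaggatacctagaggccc
Nr1h4, chr10:89506609-89506908, minus strand: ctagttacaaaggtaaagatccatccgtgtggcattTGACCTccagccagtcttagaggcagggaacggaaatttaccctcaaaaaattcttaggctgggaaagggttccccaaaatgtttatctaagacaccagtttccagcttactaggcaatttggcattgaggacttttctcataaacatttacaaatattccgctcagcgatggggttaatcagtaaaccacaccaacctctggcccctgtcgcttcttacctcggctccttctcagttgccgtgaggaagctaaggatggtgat
Nr2c2, chr6:92092183-92092482, plus strand: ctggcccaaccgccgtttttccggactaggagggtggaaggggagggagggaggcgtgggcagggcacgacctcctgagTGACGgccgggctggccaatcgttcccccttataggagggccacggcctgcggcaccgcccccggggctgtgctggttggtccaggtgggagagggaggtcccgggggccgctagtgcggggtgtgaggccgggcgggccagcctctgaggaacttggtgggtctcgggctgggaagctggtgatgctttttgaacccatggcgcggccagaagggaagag
Esrra, chr19:6921759-6922058, minus strand: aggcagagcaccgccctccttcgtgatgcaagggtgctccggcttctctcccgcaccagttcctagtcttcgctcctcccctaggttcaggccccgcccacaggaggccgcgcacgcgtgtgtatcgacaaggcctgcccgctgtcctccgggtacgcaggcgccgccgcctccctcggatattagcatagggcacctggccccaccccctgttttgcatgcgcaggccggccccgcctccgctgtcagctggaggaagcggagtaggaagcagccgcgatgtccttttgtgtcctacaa
Nr1i3 held 1 E-box at position -244 from its start, Nr1h4 held 1 AGGTCA on the opposite strand at -214 (written TGACCT), Nr2c2 held 1 TGACG at -171, and the Esrra window held none of the 5. These letters are a description of the windows and do not mark sites in use.

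Promoters of the receptors were rich in CpG. Over the 54 windows the median was 12.5 CpG and 59.3% G+C, against 7 CpG and 52.7% over all 32851 mouse windows of the same length. The windows of the liver-enriched Nr1h5, Nr1i3 and Nr1i2 held 3, 3 and 2 CpG, whereas Rxra held 55 at the richer of its starts and Nr2f6 held 53. AGGTCA occurred in 10 of 54 receptor windows (18.5%) and in 16.3% of all windows. TTCNNNGAA occurred in 5 of 54 (9.26%) and in 8.30% of all windows, and CACGTG in 4 of 54 (7.41%) and 7.15%. AGAACA was found in 5 of 54 (9.26%), against 19.0% of all windows, and TGACG in 15 of 54 (27.8%), against 20.8%.

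At 1 day, libraries held between 19098704 and 28945526 counts, and each receptor level below is in CPM, its counts scaled by library total and TMM factor. The deleted gene, Nr3c2, was at 0.895, 1.10 and 0.913 CPM in HMRKO + MI livers, against 3.56, 2.13 and 1.90 CPM in LC + MI livers (log2 fold change -1.36, adjusted p = 0.00505). In HMRKO + sham livers it was at 2.93, 3.76 and 2.55 CPM, against 5.6, 6.70 and 4.71 CPM in LC + sham livers. These did not overlap but did not pass the test (log2 fold change -0.88, adjusted p = 0.471). By qRT-PCR and Western blotting, which are other measures than counts over a whole gene, the study found MR nearly nondetectable in HMRKO livers. Defining hepatocyte genes were present in every liver. Mitochondrially encoded genes took 18.9% of counts in LC + MI replicate 1 and between 7.53% and 15.6% in the other 11 livers. Summed neutrophil markers ran from 31.5 to 35.0 CPM in HMRKO + MI livers, against 9.55 to 14.4 CPM in HMRKO + sham, 11 to 21.1 CPM in LC + MI and 4.93 to 13.6 CPM in LC + sham livers. Of the 11 neutrophil markers, 7 were tested, and 6 rose in HMRKO + MI against HMRKO + sham. Ly6g was at 0 in 7 of 12 livers. Summed lymphocyte markers ran from 1.06 to 1.67 CPM in HMRKO + MI livers, against 3.95 to 6.36 CPM in HMRKO + sham livers, with 3 of 6 lower. Kupffer cell markers summed to between 189 and 221 CPM in LC + MI livers, against 306 to 399 CPM in LC + sham livers, with 5 of 15 lower. HMRKO + sham livers, at 188 to 278 CPM, also lay below LC + sham without overlap, with 0 of 15 lower by edgeR and 10 of 15 lower at an unadjusted p under 0.05. Over all genes, 838 of 14266 had an unadjusted p under 0.05 in that comparison, in either direction. The part of these marker lists in the receptor results, the Pparg sham comparison included, was not tested.

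MI changed 15 of 31 receptors in HMRKO livers and 2 of 31 in LC livers, both near the share of all genes that changed there. In HMRKO + MI against HMRKO + sham, 3 of 31 receptors rose (22% of all tested genes rose) and 12 fell (21.7% of all genes fell) by edgeR's quasi-likelihood test at an adjusted p under 0.05. In LC + MI against LC + sham, 2 receptors rose, Nr1h4 and Nr1i3 (2.68% of all genes), and 0 fell (2.33%) by edgeR. At an unadjusted p under 0.05, 3 receptors were higher and 2 lower in LC + MI, beside 3129 of 14266 genes in either direction. That share also stands beside the unadjusted list counts for LC livers below. DESeq2 called 1 receptor lower, and over the settings run 1.21% to 7.67% of all genes were called in either direction. In HMRKO + MI against LC + MI, 5 receptors were higher (14.6% of all genes) and 7 lower (16.2%). That comparison and the one within HMRKO share the HMRKO + MI livers. Between sham groups, 1 receptor, Pparg, was higher in HMRKO + sham livers (0.021% of all genes). There 0 receptors were lower (0.014%), with 0 lower at an unadjusted p under 0.05 and 0 in DESeq2. The interaction, which asks whether the MI response differed between genotypes, called 1 receptor with a more positive response in HMRKO (6.74% of all genes) and 7 with a more negative one (8.5%).

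**Figure D1:**
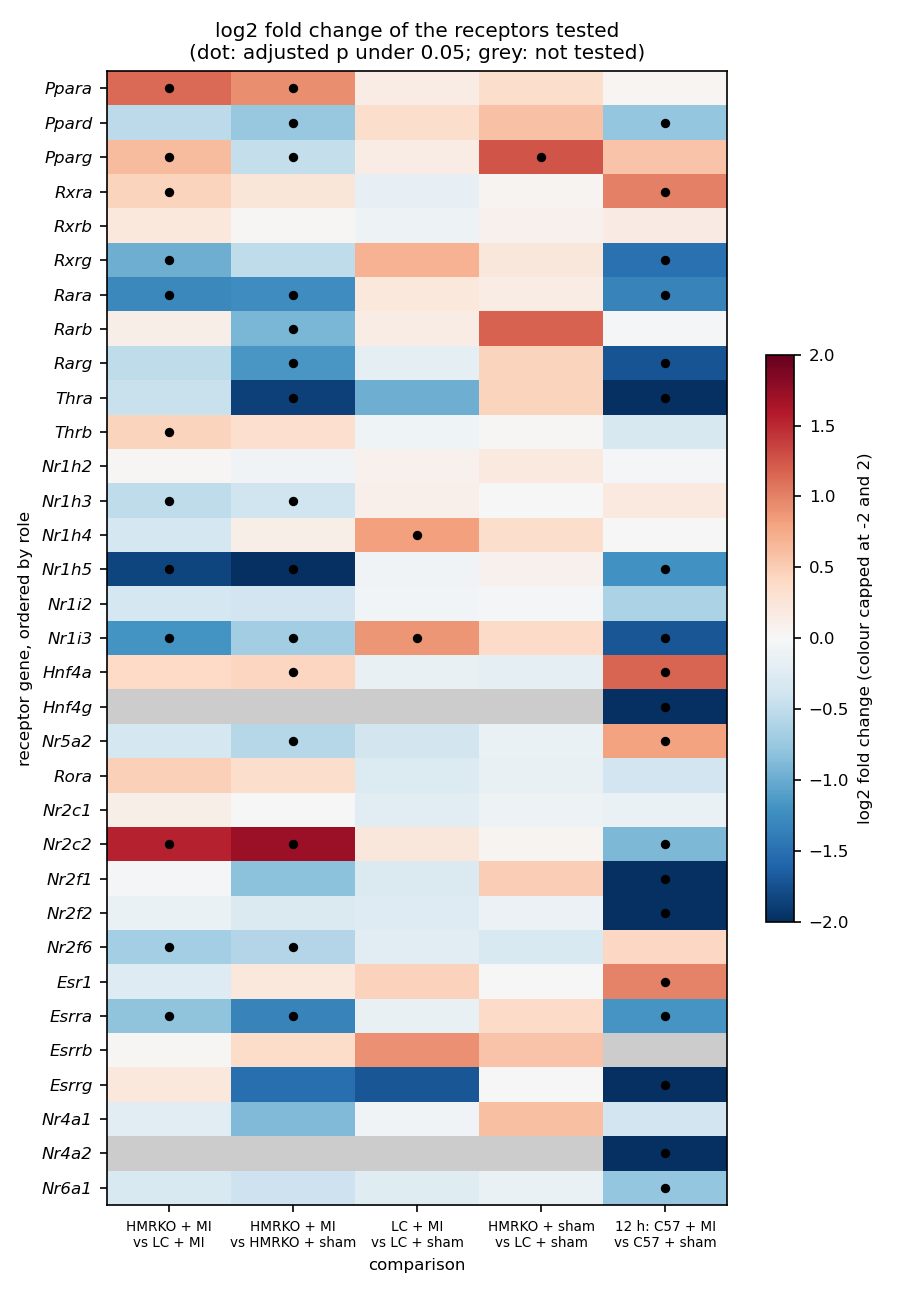
Log2 fold change of each tested receptor (rows, ordered by role) in 4 comparisons at 1 day and 1 at 12 hours (columns). Colour gives the fold change, capped at -2 and 2, and a dot marks an adjusted p under 0.05. The column of HMRKO + MI against HMRKO + sham holds 15 dots, and that of LC + MI against LC + sham holds 2, on Nr1h4 and Nr1i3.

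The median log2 fold change of the 31 receptors was -0.41 in HMRKO + MI against HMRKO + sham, against 0.01 over all genes tested. Between MI livers, HMRKO against LC, it was -0.21, against -0.01. Within LC livers, MI against sham, it was -0.08, against 0.01. Groups did not overlap for 19 of 31 receptors in HMRKO + MI against HMRKO + sham (55.8% of all genes tested) and for 6 of 31 in LC + MI against LC + sham (24.8%), again near the share of all genes.

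CAR, encoded by Nr1i3, senses xenobiotics and bilirubin and moved in opposite directions after MI in the 2 genotypes. Nr1i3 was at 291, 299 and 307 CPM in HMRKO + MI livers, against 363, 499 and 591 CPM in HMRKO + sham livers. It stood at 789, 547 and 728 CPM in LC + MI livers, against 335, 356 and 423 CPM in LC + sham livers. The 3 HMRKO + MI livers were the lowest of all 12 and the LC + MI livers overlapped with HMRKO + sham alone. Nr1i3 fell in HMRKO + MI against HMRKO + sham (log2 fold change -0.69, SE 0.20, adjusted p = 0.0123) and against LC + MI (log2 fold change -1.20, SE 0.20, adjusted p = 0.00169). It rose in LC + MI against LC + sham (log2 fold change 0.89, SE 0.20, adjusted p = 0.0251). The 2 responses differed (difference in log2 fold change -1.58, SE 0.28, adjusted p = 0.00787). The fall within HMRKO did not pass without HMRKO + sham replicate 3 (-0.53 on the log2 scale, adjusted p = 0.0632). The rise in LC did not pass without LC + sham replicate 1 or 2 or LC + MI replicate 3 (0.82 to 0.86 on the log2 scale, adjusted p = 0.0625 to 0.0876), nor in a fit of the 2 groups alone (0.89, adjusted p = 0.0600). Exons of Nr1i3 share 74.9% of their bases with Tomm40l on the other strand (GENCODE M21), and no strand setting is stated for the counting, so reads of such a pair cannot be told apart. Tomm40l itself was not called in any of these comparisons (log2 fold change 0.09, SE 0.18, adjusted p = 0.739 for HMRKO + MI against LC + MI).

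Genes of drug clearance, which CAR and PXR induce, were lower or did not pass after MI. Of 18 PXR and CAR targets tested, 0 rose (0 at an unadjusted p under 0.05) and 8 fell in HMRKO + MI against HMRKO + sham, with a median of -0.52 on the log2 scale against 0.01 over all genes. Cyp2c54, a hepatic cytochrome P450, averaged 28.5 ± 8.03 CPM in HMRKO + MI and 172 ± 40.4 CPM in HMRKO + sham livers (SD, n = 3 each; log2 fold change -2.59, adjusted p = 0.000138). Aldh1a1, a retinal dehydrogenase, and Abcc3, a conjugate exporter, also fell (log2 fold change -1.85, adjusted p = 0.00304 for Aldh1a1 and log2 fold change -1.28, adjusted p = 0.00428 for Abcc3). In LC + MI against LC + sham, 0 of these targets rose (0 at an unadjusted p under 0.05) and 2 fell, the P450 reductase Por (log2 fold change -0.89, adjusted p = 0.0277) and the organic anion carrier Slco1a4 (log2 fold change -1.80, adjusted p = 0.0279), with a median of -0.44. Between MI livers, 4 were higher and 2 lower in HMRKO. Cyp2b10, the classical CAR target, was higher in HMRKO + MI than in LC + MI, at 1.57 ± 0.598 against 0.268 ± 0.0381 CPM (SD, n = 3 each; log2 fold change 2.53, SE 0.47, adjusted p = 0.00285), whereas Nr1i3 itself was lower. PXR, encoded by Nr1i2, did not pass in any 1 day comparison and ran from 64.6 to 116 CPM over the 12 livers.

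Bile acid and oxysterol receptors diverged from one another. FXR, encoded by Nr1h4, is the bile acid receptor. It was at 180.1, 162 and 169 CPM in HMRKO + MI livers, against 122, 191 and 156 CPM in HMRKO + sham livers, and these overlapped (log2 fold change 0.12, adjusted p = 0.557). Levels were 239, 199 and 211 CPM in LC + MI livers, against 120.2, 133 and 114 CPM in LC + sham livers, and these did not overlap (log2 fold change 0.82, SE 0.16, adjusted p = 0.0181). The difference between genotypes in this response missed the threshold (difference in log2 fold change -0.70, SE 0.23, adjusted p = 0.0571). The rise in LC did not pass without LC + sham replicate 3 or LC + MI replicate 3 (0.77 to 0.84 on the log2 scale, adjusted p = 0.0586 to 0.0621). Of 7 FXR targets tested, 2 rose and 1 fell in HMRKO + MI against HMRKO + sham, with a median of -0.34 (22% of all genes rose and 21.7% fell). Within LC livers 0 passed (0 higher and 1 lower at an unadjusted p under 0.05), with a median of 0.05. Baat, which conjugates bile acids to amino acids, rose to 359.8 ± 8.72 CPM in HMRKO + MI livers, against 161 ± 19.5 CPM in HMRKO + sham livers (SD, n = 3 each; log2 fold change 1.16, adjusted p = 9.2e-05). Slc51b, a subunit of a bile acid exporter, also rose (log2 fold change 2.23, adjusted p = 0.00698). Abcb11, the bile salt export pump, fell to 60.6 ± 25.6 CPM, against 318 ± 64.0 CPM in HMRKO + sham livers (log2 fold change -2.39, SE 0.40, adjusted p = 0.000571).

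Nr1h5, which in the mouse encodes FXRβ, a lanosterol-responsive relative of FXR, had among the receptors called the lowest fold change in HMRKO + MI livers in both of their comparisons. Its level was 1.51, 1.72 and 1.67 CPM in HMRKO + MI livers, against 6.33, 5.83 and 7.59 CPM in HMRKO + sham livers. LC + MI livers had 6.41, 4.18 and 7.02 CPM, against 8.69, 5.0 and 4.89 CPM in LC + sham livers. The 3 HMRKO + MI livers lay below the other 9, which overlapped with each other. It fell against HMRKO + sham (log2 fold change -2.0, SE 0.28, adjusted p = 0.000183) and against LC + MI (log2 fold change -1.84, SE 0.27, adjusted p = 0.00112), and the response differed between genotypes (difference in log2 fold change -1.93, SE 0.37, adjusted p = 0.010). These 3 calls passed under each alternative run at 1 day.

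LXRα, encoded by Nr1h3, senses oxysterols and drives sterol excretion and lipogenesis. Nr1h3 was at 93.8, 90.3 and 96.5 CPM in HMRKO + MI livers, below each of 120.0, 138 and 113 CPM in HMRKO + sham livers. In LC + MI livers it was at 151, 126 and 123 CPM, against 119, 117 and 139 CPM in LC + sham livers, and these overlapped. It fell in HMRKO + MI against HMRKO + sham (log2 fold change -0.40, SE 0.14, adjusted p = 0.0304) and against LC + MI (log2 fold change -0.51, SE 0.14, adjusted p = 0.0150). The first call was lost without HMRKO + sham replicate 1 or 2 or HMRKO + MI replicate 1, 2 or 3 (-0.43 to -0.32 on the log2 scale, adjusted p = 0.0547 to 0.103) and with no filter on low counts (-0.43, adjusted p = 0.0697). The second was lost without LC + MI replicate 1 or HMRKO + MI replicate 2 (-0.49 to -0.41 on the log2 scale, adjusted p = 0.0539 to 0.0565). LXRβ, encoded by Nr1h2, overlapped between groups in each comparison and ran from 34.3 to 58.2 CPM.

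Of 12 LXR targets (Nr1h3 itself is one), 7 fell, Nr1h3 among them, and 2 rose in HMRKO + MI against HMRKO + sham, with a median of -0.50. After MI in LC livers 3 fell and 0 rose (1 higher at an unadjusted p under 0.05), with a median of -0.50. Srebf1, the master regulator of lipogenic genes, fell in both, to 46.6 ± 5.67 CPM in HMRKO + MI against 307 ± 95.5 CPM in HMRKO + sham (log2 fold change -2.72, adjusted p = 1.0e-05). It fell to 95.3 ± 13.6 CPM in LC + MI against 274 ± 40.0 CPM in LC + sham (SD, n = 3 each; log2 fold change -1.52, adjusted p = 0.00301). Abca1, the cholesterol efflux pump, moved the other way in HMRKO livers, with 233 ± 57.8 CPM in HMRKO + MI and 69.5 ± 7.01 CPM in HMRKO + sham (log2 fold change 1.75, SE 0.17, adjusted p = 2.7e-05). Abcg5 and its partner Abcg8, which excrete sterols into bile, fell in LC + MI (log2 fold change -1.23, adjusted p = 0.0259 and log2 fold change -1.85, adjusted p = 0.00603).

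PPARα, encoded by Ppara, is the fatty acid sensor of fasting liver. Ppara was at 27.1, 22.6 and 31.8 CPM in HMRKO + MI livers, against 12.7, 10.7 and 19.3 CPM in HMRKO + sham livers. In LC + MI livers it was at 11.4, 14.1 and 11.5 CPM, against 9.19, 15.5 and 8.85 CPM in LC + sham livers. Each HMRKO + MI liver exceeded the other 9. It was higher than in HMRKO + sham (log2 fold change 0.93, SE 0.25, adjusted p = 0.00901) and than in LC + MI (log2 fold change 1.14, SE 0.25, adjusted p = 0.00580), and both calls passed under each alternative run. The response did not pass in LC (log2 fold change 0.15, adjusted p = 0.788), and the difference between the responses missed the threshold (difference in log2 fold change 0.78, SE 0.35, adjusted p = 0.137).

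Most PPARα targets rose with MI in HMRKO livers. Of 22 tested, 14 rose and 4 fell in HMRKO + MI against HMRKO + sham, with a median of 0.91 against 0.01 over all genes. In LC + MI against LC + sham 6 rose and 1 fell, with a median of 0.60. Between MI livers, 5 were higher and 0 lower in HMRKO (1 lower at an unadjusted p under 0.05). Fgf21, the fasting hormone, averaged 15.3 ± 6.49 CPM in HMRKO + MI and 0.495 ± 0.193 CPM in HMRKO + sham livers (log2 fold change 4.92, SE 0.48, adjusted p = 2.2e-05). Its mean was 2.28 ± 0.987 CPM in LC + MI and 0.425 ± 0.285 CPM in LC + sham livers (SD, n = 3 each; log2 fold change 2.40, SE 0.48, adjusted p = 0.0185). Plin2, a lipid droplet coat protein, reached 1178 ± 255 CPM in HMRKO + MI, against 207 ± 37.5 CPM in HMRKO + sham (log2 fold change 2.51, adjusted p = 1.6e-05). In LC livers the call with the smallest p was Cyp4a10, a fatty acid ω-hydroxylase (log2 fold change 2.35, adjusted p = 0.0143). Fabp1 and Acaa1b, a fatty acid carrier and a peroxisomal thiolase, fell in HMRKO + MI (log2 fold change -2.52, adjusted p = 8.7e-05 and log2 fold change -2.35, adjusted p = 0.000789).

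PPARγ, encoded by Pparg, is the lipid-storing PPAR and is low in lean liver. It was at 11.3, 13.0 and 11.5 CPM in HMRKO + sham livers, against 3.73, 4.85 and 6.31 CPM in LC + sham livers. It was at 8.61, 7.96 and 9.19 CPM in HMRKO + MI livers, against 5.91, 5.15 and 5.54 CPM in LC + MI livers. All 6 HMRKO livers exceeded all 6 LC livers. Pparg was higher in HMRKO at sham (log2 fold change 1.26, SE 0.18, adjusted p = 0.0415) and after MI (log2 fold change 0.63, SE 0.18, adjusted p = 0.0200), and within HMRKO it was lower after MI than after sham (log2 fold change -0.47, SE 0.18, adjusted p = 0.0457). The sham call did not pass without LC + sham replicate 1 or 2 or HMRKO + sham replicate 1, 2 or 3 (1.09 to 1.30 on the log2 scale, adjusted p = 0.0993 to 0.214). It also failed with total counts in place of TMM (1.23, adjusted p = 0.0583) and in a fit of the 2 groups alone (1.27, adjusted p = 0.103). The MI call did not pass without LC + MI replicate 2 or HMRKO + MI replicate 3 (0.58 to 0.59 on the log2 scale, adjusted p = 0.0571 to 0.0615). The one within HMRKO did not pass without HMRKO + sham replicate 1, 2 or 3 or HMRKO + MI replicate 1, 2 or 3 (-0.52 to -0.41 on the log2 scale, adjusted p = 0.0658 to 0.139) or with no filter on low counts (-0.50, adjusted p = 0.0694). Of 8 PPARγ targets tested, 5 rose and 1 fell in HMRKO + MI against HMRKO + sham, with a median of 1.54. After MI in LC livers 6 rose (0 fell, 0 at an unadjusted p under 0.05), with a median of 2.12. Cidec, which enlarges lipid droplets, averaged 127 ± 55.9 CPM in HMRKO + MI and 5.26 ± 0.788 CPM in HMRKO + sham (log2 fold change 4.59, adjusted p = 0.000108). It averaged 15.6 ± 11.3 CPM in LC + MI and 1.72 ± 1.16 CPM in LC + sham (SD, n = 3 each; log2 fold change 3.19, adjusted p = 0.0120).

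PPARδ, encoded by Ppard and widely expressed, was at 5.48, 6.39 and 4.77 CPM in HMRKO + MI livers, against 7.71, 9.97 and 10.5 CPM in HMRKO + sham livers. In LC + MI it was at 8.27, 6.75 and 8.89 CPM, against 7.32, 6.40 and 5.08 CPM in LC + sham. The HMRKO groups did not overlap and the LC groups did. Ppard fell in HMRKO (log2 fold change -0.75, SE 0.19, adjusted p = 0.00733) and did not pass in LC (log2 fold change 0.35, adjusted p = 0.319). The responses differed (difference in log2 fold change -1.10, SE 0.27, adjusted p = 0.0215), a call lost without HMRKO + sham replicate 3 (-1.01 on the log2 scale, adjusted p = 0.0501).

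**Figure D2:**
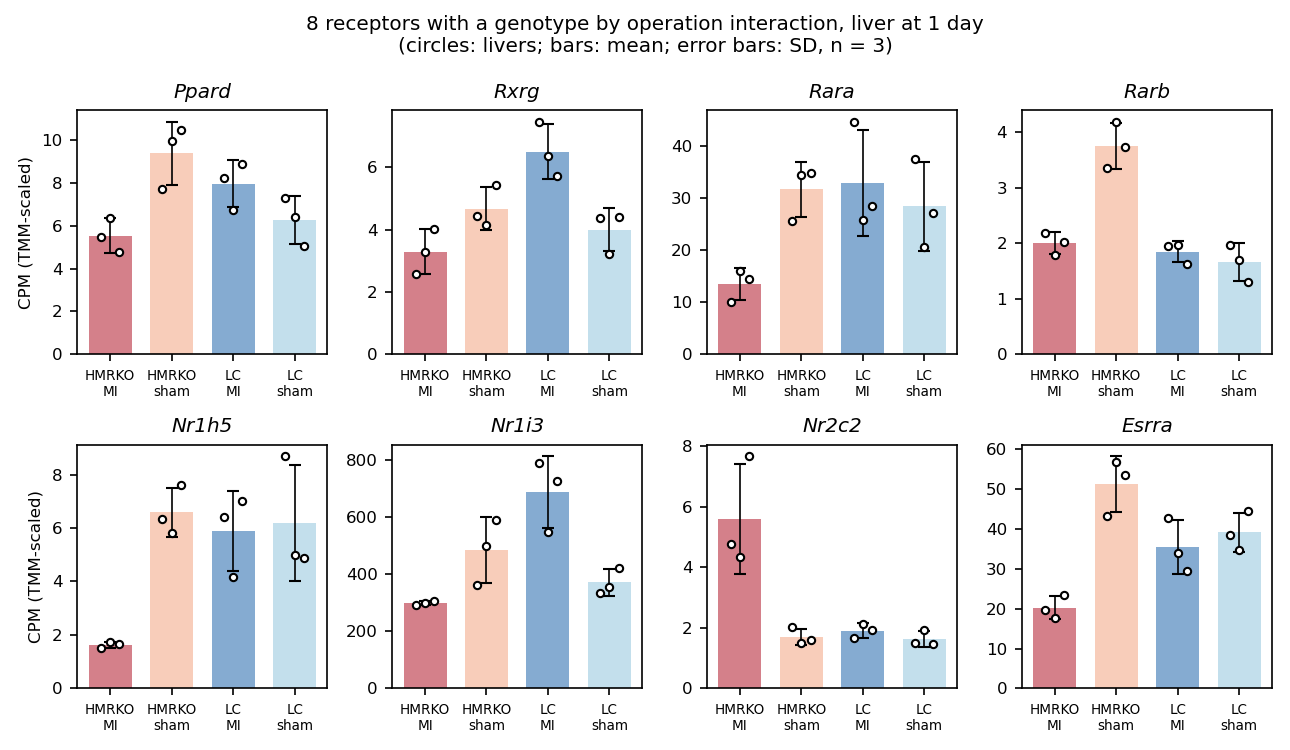
CPM of the 8 receptors whose MI response differed between genotypes at 1 day. Circles are livers, bars are means and error bars are SD (n = 3), with MI left of sham within each genotype. Nr1i3 in HMRKO + MI livers lies below HMRKO + sham and Nr1i3 in LC + MI lies above LC + sham, Nr2c2 is highest in the 3 HMRKO + MI livers, and Rara, Nr1h5 and Esrra are lowest there.

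All 3 retinoic acid receptors fell after MI in HMRKO livers. RARα, encoded by Rara, was at 9.95, 15.9 and 14.4 CPM in HMRKO + MI livers, against 25.6, 34.5 and 34.8 CPM in HMRKO + sham livers. Rara stood at 44.6, 25.9 and 28.4 CPM in LC + MI livers, against 37.5, 20.7 and 27.0 CPM in LC + sham livers. Each HMRKO + MI liver was below the other 9, and the highest was LC + MI replicate 1. Rara fell against HMRKO + sham (log2 fold change -1.23, SE 0.26, adjusted p = 0.00254) and against LC + MI (log2 fold change -1.29, SE 0.26, adjusted p = 0.00416), and both calls passed under each alternative run. The responses differed (difference in log2 fold change -1.45, SE 0.37, adjusted p = 0.0230), a call lost without LC + sham replicate 2, HMRKO + sham replicate 3 or HMRKO + MI replicate 1 (-1.37 to -1.26 on the log2 scale, adjusted p = 0.0501 to 0.0549). RARβ, itself a retinoic acid target, is encoded by Rarb, which was at 2.18, 1.79 and 2.03 CPM in HMRKO + MI, against 3.35, 4.19 and 3.73 CPM in HMRKO + sham. It was at 1.95, 1.97 and 1.63 CPM in LC + MI, against 1.97, 1.7 and 1.31 CPM in LC + sham. The 3 HMRKO + sham livers were highest and the other 9 overlapped. Rarb fell in HMRKO (log2 fold change -0.91, SE 0.22, adjusted p = 0.00497). Its interaction (difference in log2 fold change -1.06, SE 0.31, adjusted p = 0.0381) was lost without LC + sham replicate 2 or 3, LC + MI replicate 1 or 2, HMRKO + sham replicate 2 or 3 or HMRKO + MI replicate 1, 2 or 3 (-1.12 to -0.92 on the log2 scale, adjusted p = 0.0554 to 0.0851) and with no filter on low counts (-1.07, adjusted p = 0.0817). At sham it was higher in HMRKO in each liver but did not pass (log2 fold change 1.17, adjusted p = 0.125). Its exons share 34.1% of their bases with Top2b on the other strand, and Top2b moved the other way in HMRKO (log2 fold change 0.38, SE 0.13, adjusted p = 0.0270).

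RARγ, encoded by Rarg, was at 4.03, 3.40 and 2.99 CPM in HMRKO + MI livers, against 7.33, 7.03 and 8.87 CPM in HMRKO + sham livers, and these did not overlap (log2 fold change -1.16, SE 0.23, adjusted p = 0.00177). The LC groups did overlap, with 5.61, 4.82 and 4.43 CPM in LC + MI and 7.39, 3.85 and 5.75 CPM in LC + sham (log2 fold change -0.20, adjusted p = 0.665). Of 13 genes of retinoid handling and retinoic acid response (Rarb is one), 3 rose and 6 fell in HMRKO + MI against HMRKO + sham, with a median of -0.67. In LC + MI against LC + sham 0 rose (3 at an unadjusted p under 0.05) and 1 fell. Dhrs3, which reduces retinal back to retinol and is induced by retinoic acid, fell to 44.3 ± 7.98 CPM in HMRKO + MI, against 135 ± 9.02 CPM in HMRKO + sham (SD, n = 3 each; log2 fold change -1.61, SE 0.26, adjusted p = 0.000516). Rdh16, a retinol dehydrogenase, fell (log2 fold change -1.41, adjusted p = 0.00234), and Cyp26b1, which degrades retinoic acid, rose (log2 fold change 2.52, adjusted p = 0.00341).

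Retinoid X receptors, the shared partners of most of these receptors, did not move together. RXRα, encoded by Rxra, was at 324, 332 and 362 CPM in HMRKO + MI livers, against 267, 248 and 229.6 CPM in LC + MI livers, with no overlap (log2 fold change 0.45, SE 0.13, adjusted p = 0.0239). Sham livers had 273, 320.2 and 272 CPM in HMRKO and 262, 297 and 276 CPM in LC, and neither MI response passed (log2 fold change 0.24, adjusted p = 0.172 in HMRKO and log2 fold change -0.17, adjusted p = 0.516 in LC). The call was lost without LC + MI replicate 2 or 3 or HMRKO + MI replicate 2 or 3 (0.40 to 0.47 on the log2 scale, adjusted p = 0.0538 to 0.0845) and with no filter on low counts (0.44, adjusted p = 0.0913). RXRγ, encoded by the low-level gene Rxrg, was at 2.57, 3.29 and 4.01 CPM in HMRKO + MI, against 7.46, 6.35 and 5.71 CPM in LC + MI, again with no overlap and in the other direction (log2 fold change -0.98, SE 0.21, adjusted p = 0.00567). Sham livers had 4.44, 4.14 and 5.44 CPM in HMRKO and 4.38, 3.22 and 4.41 CPM in LC. Its responses differed between genotypes (difference in log2 fold change -1.20, SE 0.30, adjusted p = 0.0219), a call lost without LC + sham replicate 2 or HMRKO + sham replicate 3 (-1.08 to -1.07 on the log2 scale, adjusted p = 0.0516 to 0.0544). Rxrb ran from 25.9 to 36.7 CPM and did not pass in any comparison at 1 day.

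Thyroid hormone receptors differed from each other. TRα, encoded by Thra, was at 10.2, 7.01 and 7.10 CPM in HMRKO + MI livers, against 27.9, 37.8 and 22.4 CPM in HMRKO + sham livers, and these did not overlap (log2 fold change -1.86, SE 0.31, adjusted p = 0.000604). LC + MI livers had 15.7, 7.92 and 9.41 CPM, against 30.1, 14.7 and 20.1 CPM in LC + sham livers, lower in the mean but overlapping at LC + MI replicate 1 (log2 fold change -0.98, SE 0.30, adjusted p = 0.0811). The interaction did not pass (difference in log2 fold change -0.88, SE 0.43, adjusted p = 0.169). Thra shares 263 exon bases (5.70%) with the clock gene Nr1d1 on the other strand. Nr1d1 fell in both HMRKO (log2 fold change -1.89, SE 0.37, adjusted p = 0.00146) and LC livers (log2 fold change -2.35, SE 0.37, adjusted p = 0.00603). TRβ, the main hepatic isoform, is encoded by Thrb. It was at 23.3, 17.3 and 18.2 CPM in HMRKO + MI livers, against 12.9, 15 and 15.2 CPM in LC + MI livers, without overlap (log2 fold change 0.45, SE 0.15, adjusted p = 0.0346). That call was lost without LC + MI replicate 1, 2 or 3 or HMRKO + MI replicate 1 or 3 (0.31 to 0.50 on the log2 scale, adjusted p = 0.0504 to 0.138) and with total counts in place of TMM (0.38, adjusted p = 0.123), with no filter on low counts (0.43, adjusted p = 0.0786) and in a fit of the 2 groups alone (0.45, adjusted p = 0.0650). Of 12 thyroid hormone targets and handling genes, 3 rose and 4 fell in HMRKO + MI against HMRKO + sham, with a median of -0.03. In LC + MI against LC + sham 1 rose and 1 fell. Klf9, a thyroid hormone and glucocorticoid induced gene, averaged 18.3 ± 4.74 CPM in HMRKO + MI livers, against 5.30 ± 1.08 CPM in LC + MI livers (SD, n = 3 each; log2 fold change 1.78, adjusted p = 0.000823). Gpd2, the mitochondrial glycerol phosphate dehydrogenase, was also higher (log2 fold change 1.88, adjusted p = 0.00327).

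HNF4α and LRH-1, both keepers of hepatocyte identity, moved in opposite directions after MI in HMRKO livers. Hnf4a was at 493, 508 and 541 CPM in HMRKO + MI livers, against 395, 419 and 330.1 CPM in HMRKO + sham livers, without overlap (log2 fold change 0.43, SE 0.16, adjusted p = 0.0465). LC + MI livers had 404, 382 and 384 CPM, against 526, 356 and 419 CPM in LC + sham livers (log2 fold change -0.15, adjusted p = 0.631). The HMRKO call was lost without HMRKO + sham replicate 1, 2 or 3 or HMRKO + MI replicate 1, 2 or 3 (0.34 to 0.50 on the log2 scale, adjusted p = 0.0501 to 0.172) and with total counts in place of TMM (0.30, adjusted p = 0.183) and with no filter on low counts (0.41, adjusted p = 0.131). LRH-1 is encoded by Nr5a2, which was at 13.1, 18.9 and 24.4 CPM in HMRKO + MI, against 31.5, 28.8 and 23.8 CPM in HMRKO + sham, overlapping at 1 liver of each (log2 fold change -0.58, SE 0.21, adjusted p = 0.0388). LC + MI livers had 27.7, 24.0 and 20.4 CPM, against 35.0, 26.6 and 31.1 CPM in LC + sham (log2 fold change -0.36, adjusted p = 0.334). The HMRKO call was lost without HMRKO + sham replicate 1 or 2 or HMRKO + MI replicate 1 or 2 (-0.58 to -0.37 on the log2 scale, adjusted p = 0.0822 to 0.145) and in a fit of the 2 groups alone (-0.59, adjusted p = 0.0513). Of 22 HNF4α targets, 4 rose and 7 fell in HMRKO + MI against HMRKO + sham (median -0.16). In LC + MI against LC + sham 1 rose and 1 fell (median -0.15). Of 7 LRH-1 targets, 4 fell and 0 rose (0 at an unadjusted p under 0.05) in HMRKO, with a median of -1.80. In LC 2 fell, Abcg5 and Abcg8, and 0 rose (0 unadjusted), with a median of -0.87. Both genes are also in the list of LXR targets and are counted there, and the lists share Cyp7a1 as well.

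TR4, an orphan receptor encoded by Nr2c2, had the highest fold change among the receptors that rose in HMRKO + MI livers. It was at 4.75, 4.35 and 7.66 CPM in HMRKO + MI livers, against 2.01, 1.49 and 1.58 CPM in HMRKO + sham livers. The level was 1.65, 2.13 and 1.94 CPM in LC + MI livers, against 1.51, 1.92 and 1.46 CPM in LC + sham livers. Each HMRKO + MI liver was above the other 9, which lay between 1.46 and 2.13 CPM. It was higher than in HMRKO + sham (log2 fold change 1.71, SE 0.26, adjusted p = 0.000318) and than in LC + MI (log2 fold change 1.54, SE 0.25, adjusted p = 0.00169), both under each alternative run. The interaction (difference in log2 fold change 1.48, SE 0.37, adjusted p = 0.0215) was lost without LC + sham replicate 2 or HMRKO + sham replicate 2 (1.35 to 1.40 on the log2 scale, adjusted p = 0.0514 to 0.0569). Its long exons share 30.7% of their bases with Mrps25 on the other strand, and Mrps25 was lower in HMRKO + MI than in HMRKO + sham (log2 fold change -0.35, SE 0.12, adjusted p = 0.0276). The related TR2 gene Nr2c1 ran from 6.85 to 9.72 CPM and did not pass.

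EAR2, a COUP-TF relative encoded by Nr2f6, was at 38.9, 55.9 and 54.1 CPM in HMRKO + MI livers, against 81.3, 66.7 and 75.7 CPM in HMRKO + sham livers. In LC + MI it was at 77.6, 84.0 and 77.3 CPM, against 96.8, 82.4 and 96.2 CPM in LC + sham. The HMRKO + MI livers were the lowest of the 12, below HMRKO + sham (log2 fold change -0.59, SE 0.15, adjusted p = 0.00819) and LC + MI (log2 fold change -0.68, SE 0.15, adjusted p = 0.00665). Its exons share 54.4% of their bases with Ocel1 on the other strand, which was not called (log2 fold change 0.08, SE 0.14, adjusted p = 0.693 for HMRKO + MI against LC + MI). COUP-TFI and COUP-TFII, encoded by Nr2f1 and Nr2f2, were at 0.277 to 0.922 CPM and 10.1 to 16.4 CPM over the 12 livers and did not pass at 1 day.

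ERRα, encoded by Esrra, supports mitochondrial gene expression. Esrra was at 19.7, 17.6 and 23.3 CPM in HMRKO + MI livers, against 43.4, 56.8 and 53.7 CPM in HMRKO + sham livers. In LC + MI livers it was at 42.8, 34.0 and 29.5 CPM, against 38.4, 34.7 and 44.5 CPM in LC + sham livers. All 3 HMRKO + MI livers were below the other 9. Esrra fell against HMRKO + sham (log2 fold change -1.34, SE 0.17, adjusted p = 0.000127) and against LC + MI (log2 fold change -0.81, SE 0.17, adjusted p = 0.00515) and did not pass in LC (log2 fold change -0.15, adjusted p = 0.671). Its responses differed (difference in log2 fold change -1.20, SE 0.24, adjusted p = 0.0112). These 3 calls passed under every alternative run. Of its 10 targets tested, 2 rose and 1 fell in HMRKO + MI against HMRKO + sham, with a median of 0.32, and 0 passed in LC (2 higher and 2 lower at an unadjusted p under 0.05). Between MI livers, 3 were higher and 1 lower in HMRKO, with a median of 0.62. Cycs, encoding cytochrome c, averaged 202 ± 21.9 CPM in HMRKO + MI and 98.0 ± 5.81 CPM in HMRKO + sham (log2 fold change 1.05, adjusted p = 0.00211). Vegfa, an angiogenic factor, averaged 104 ± 6.27 CPM in HMRKO + MI and 246 ± 51.2 CPM in HMRKO + sham (SD, n = 3 each; log2 fold change -1.24, adjusted p = 0.000235).

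The remaining 12 tested receptors did not pass in any 1 day comparison: Rxrb, Nr1h2, Nr1i2, Rora, Nr2c1, Nr2f1, Nr2f2, Esr1, Esrrb, Esrrg, Nr4a1 and Nr6a1. Rora, which encodes RORα, an activator of clock and lipid genes, came nearest in HMRKO + MI against LC + MI (log2 fold change 0.48, adjusted p = 0.0676). Nr4a1, an immediate early receptor, was at most at 2.18 CPM. Of 14 immediate early genes that often move with the NR4A group, 5 rose and 0 fell (0 at an unadjusted p under 0.05) in HMRKO + MI against HMRKO + sham, with a median of 0.39. In LC 0 passed (0 higher and 2 lower unadjusted). Egr1, a zinc finger factor, averaged 26.4 ± 11.9 CPM in HMRKO + MI and 2.91 ± 1.59 CPM in HMRKO + sham (SD, n = 3 each; log2 fold change 3.17, adjusted p = 0.00107). Vdr, Hnf4g, Pgr, Nr4a2 and Nr4a3 were not tested, with at most 2, 3, 1, 9 and 2 counts in any liver.

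**Figure D3:**
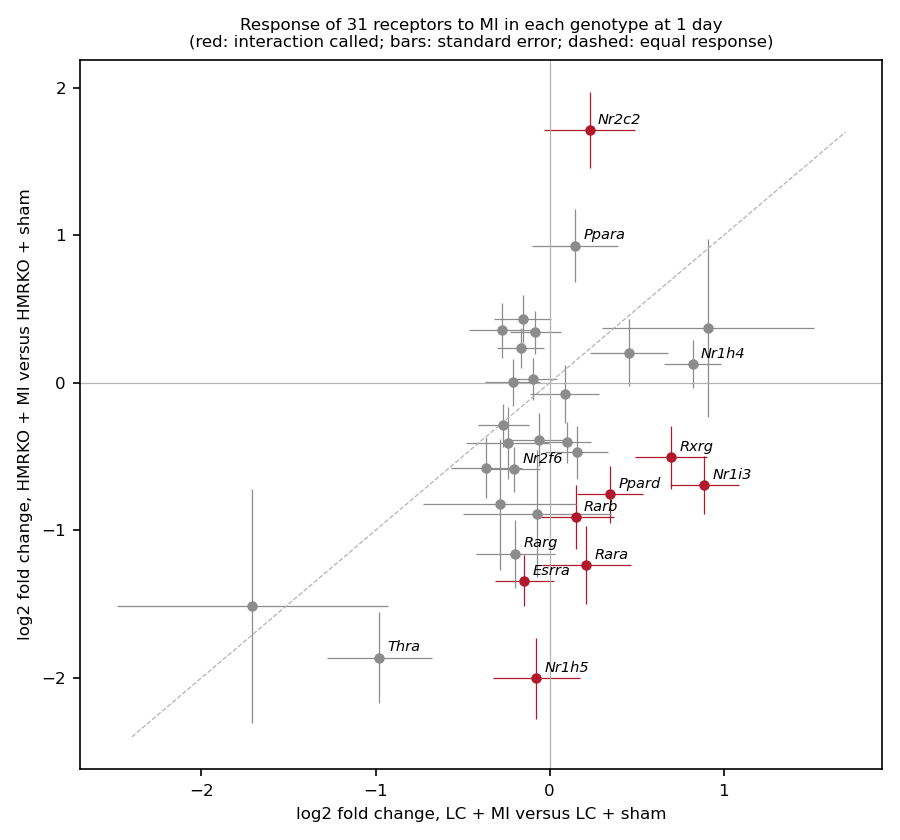
Log2 fold change of the 31 tested receptors after MI in HMRKO (vertical) and LC livers (horizontal) at 1 day. Points are receptors, bars are standard errors, red marks the 8 with an interaction at an adjusted p under 0.05 and the dashed line marks equal responses. Nr2c2 lies above the line at 1.71 in HMRKO and 0.23 in LC, and Nr1i3 lies to the lower right at -0.69 in HMRKO and 0.89 in LC.

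Coregulators, which receptors recruit to open or close chromatin, changed in part. Of 12 coactivators, 4 rose and 2 fell in HMRKO + MI against HMRKO + sham (median 0.20), and 0 passed in LC (1 higher and 4 lower at an unadjusted p under 0.05). Over all genes tested, 22% rose and 21.7% fell in that HMRKO comparison. Ncoa2, a p160 coactivator, averaged 28.1 ± 3.07 CPM in HMRKO + MI and 15.7 ± 2.01 CPM in HMRKO + sham (SD, n = 3 each; log2 fold change 0.84, adjusted p = 0.000984). Its response differed from that in LC (difference in log2 fold change 1.19, SE 0.22, adjusted p = 0.00845). Ppargc1b, a coactivator of estrogen-related receptors, fell (log2 fold change -2.20, adjusted p = 0.00227). Of 11 corepressor genes, 2 rose and 2 fell in HMRKO (median -0.01) and 1 fell in LC. Tbl1xr1, a subunit of the NCoR complex, rose to 58.0 ± 10.8 CPM in HMRKO + MI, against 19.0 ± 1.98 CPM in HMRKO + sham (log2 fold change 1.61, adjusted p = 3.0e-05). Its relative Tbl1x fell (log2 fold change -0.62, adjusted p = 0.00514). Among 7 tested nuclear receptors outside the set, 4 fell in each genotype after MI, and the 4 calls with the smallest p in HMRKO were Nr1d2, Nr3c2, Nr1d1 and the glucocorticoid receptor gene Nr3c1.

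**Figure D4:**
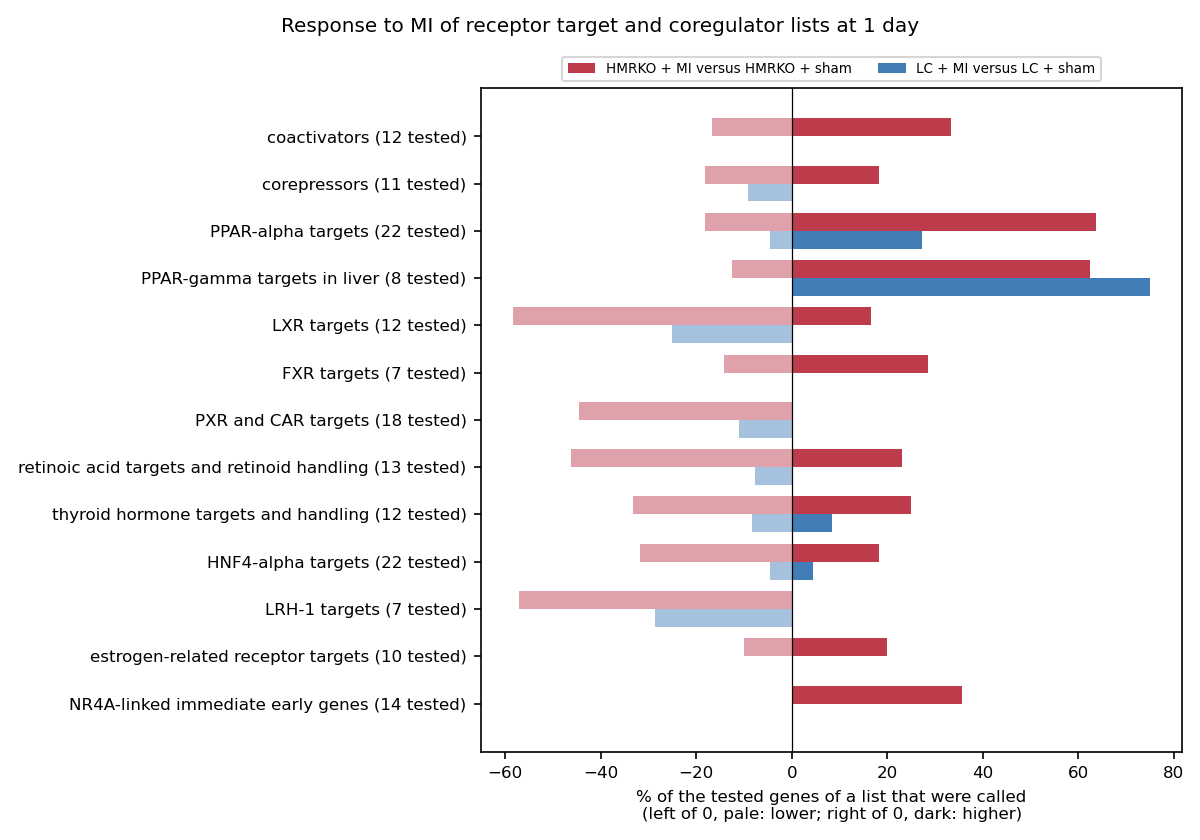
Share (%) of the tested genes of each target or coregulator list called higher (right of 0, dark) or lower (left of 0, pale) after MI at 1 day, in HMRKO (red, upper bar) and LC livers (blue, lower bar). PPARα targets were higher in 14 of 22 tested in HMRKO and 6 of 22 in LC, and PXR and CAR targets were lower in 8 of 18 and 2 of 18.

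Marker lists of liver cells are given with the same counts for HMRKO + MI against HMRKO + sham. Of 14 hepatocyte markers tested, 2 rose and 2 fell, of 15 Kupffer cell markers 2 rose and 4 fell, and of 14 sinusoidal endothelial markers 2 rose and 0 fell (0 at an unadjusted p under 0.05). Of 16 stellate cell markers 2 rose and 2 fell, of 7 cholangiocyte markers 1 rose and 2 fell, and of 6 lymphocyte markers 3 fell and 0 rose (0 unadjusted).

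At 12 hours the libraries of the 2 groups differed in kind as well as in treatment. C57 + MI libraries held 16745688 to 19190438 estimated counts, against 1361564 to 2255837 in C57 + sham libraries. Thinned to 1361506 counts each, the MI libraries held 12448 to 12573 genes with a count, against 14018 to 14540 in sham libraries. Gm20594, a gene named because of its share, took 0.0167% to 0.0659% of counts in MI and 1.79% to 3.66% in sham. TMM factors were 0.756 to 0.851 in MI and 1.23 to 1.28 in sham. Depth and library makeup therefore cannot be told apart from the operation in every value below. Summed stellate cell markers were at 148 to 171 TPM (a share of transcripts corrected for their length) in MI, against 410 to 524 TPM in sham, with 10 of 16 lower. Hepatocyte markers summed to 57668 to 77641 TPM in MI, against 40474 to 43745 TPM in sham, with 11 of 14 higher.

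The length correction in TPM allows receptors to be ranked within a liver. In C57 + MI livers Hnf4a led with 169 ± 22.9 TPM, followed by Nr1h4 with 144 ± 42.5 TPM, Rxra with 107 ± 6.89 TPM, Nr1i3 with 86.8 ± 50.4 TPM and Nr1h3 with 64.4 ± 6.00 TPM (SD, n = 3). Each of the first 4 overlapped with the next, and Nr1h3 did not overlap with Nr1h2 below it. Nr1h2, Nr1i2, Nr2f6 and Ppara followed, at means of 36.2, 34.1, 25.9 and 19.0 TPM. In C57 + sham livers Nr1i3 ranked first, at 454, 409.9 and 569.9 TPM, ahead of Nr1h4 at 154, 226 and 293 TPM without overlap. Vdr, Esrrb, Hnf4g, Nr4a2, Nr4a3, Esrrg and Pgr stayed at or under 2.47 TPM in every liver.

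**Figure D5:**
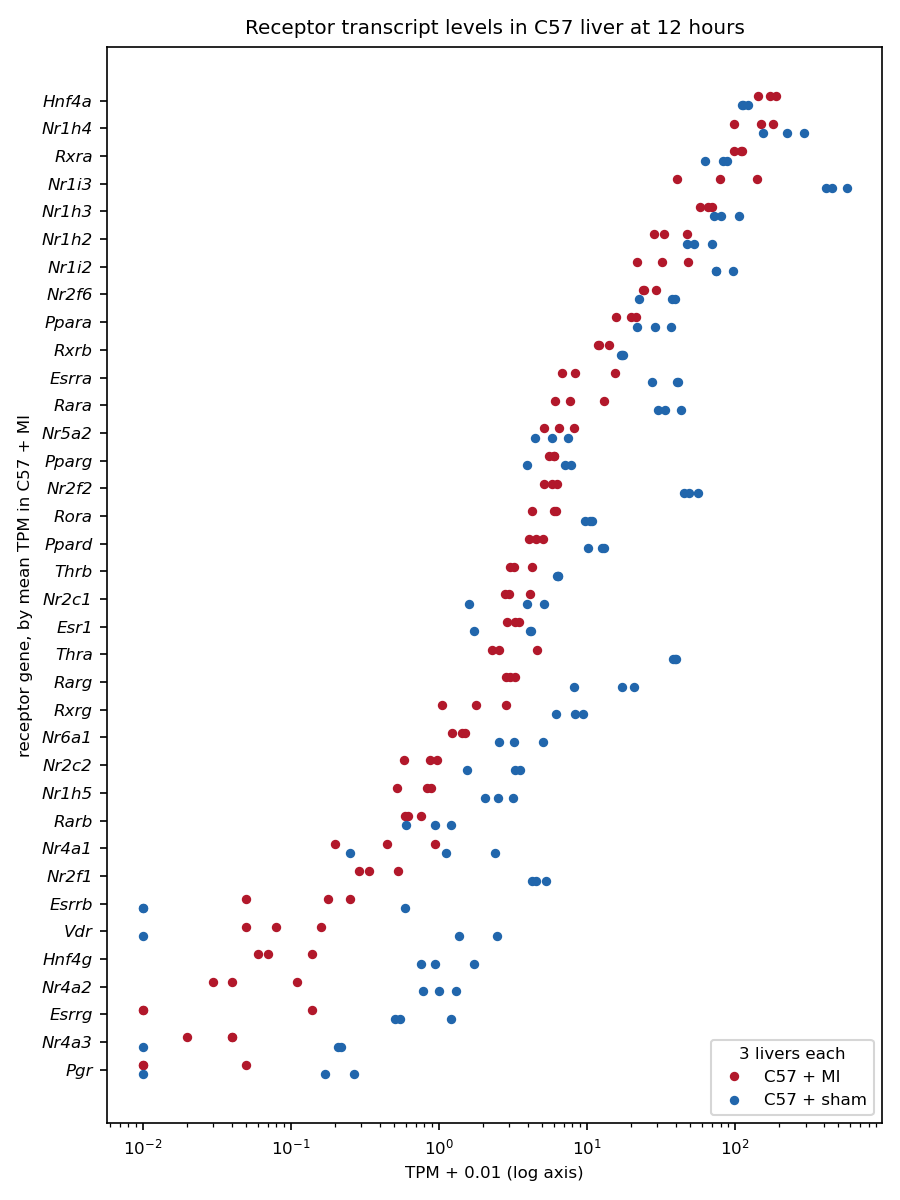
TPM of the 36 receptors in each C57 liver at 12 hours, on a log axis after adding 0.01, ordered by the mean in C57 + MI. Red points are C57 + MI and blue points C57 + sham (3 livers each). Hnf4a is highest in C57 + MI and Nr1i3 in C57 + sham, and Thra, Nr2f1 and Nr2f2 lie far lower in C57 + MI.

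Of 32 receptors tested at 12 hours, 4 were higher in C57 + MI than in C57 + sham (34.3% of all genes) and 15 lower (32%). Hnf4g, Nr4a2, Esrrg and Nr2f1 passed the count filter through the shallow sham libraries alone. They could be called lower but not higher, and they are among the 15 and in the median below. The median over the receptors was -0.51, against 0.11 over all genes. Scaled to total counts alone, 0 were higher and 18 lower with a median of -0.54 over all genes, and limma on log2(TPM + 0.5) called 1 higher and 18 lower. With a mean of at least 50 in sham libraries, a setting chosen after seeing the data, 11 calls were left. Nearly as many of those calls were higher as lower, in a set without the receptors that had few sham counts. Whether an excess of lower receptors remained beside all genes of that setting was not tested. Over the settings run at 12 hours, 48.3% to 73.1% of all tested genes were called in either direction. The fold changes below are from TMM-scaled estimated counts, so a receptor can rise on that scale and overlap in TPM.

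The 4 higher receptors were Hnf4a, Rxra, Nr5a2 and the estrogen receptor gene Esr1. Hnf4a was at 742, 689 and 549.5 CPM in C57 + MI livers, against 296, 306 and 282 CPM in C57 + sham livers, without overlap (log2 fold change 1.16, SE 0.22, adjusted p = 0.000934). It did not pass with total counts in place of TMM (0.52, adjusted p = 0.0764). Rxra was at 442, 502 and 465 CPM in C57 + MI, against 192, 259 and 248 CPM in C57 + sham, without overlap (log2 fold change 1.01, SE 0.22, adjusted p = 0.00204). It did not pass with total counts in place of TMM (0.36, adjusted p = 0.188), with limma on log2(TPM + 0.5) (0.46, adjusted p = 0.0660) and with limma on log2(TPM + 0.1) (0.47, adjusted p = 0.0655). Nr5a2 was at 21.2, 27.8 and 33.2 CPM in C57 + MI, against 11.8, 19.8 and 14.9 CPM in C57 + sham (log2 fold change 0.81, SE 0.26, adjusted p = 0.0177). In TPM the groups overlapped, at 5.11, 6.52 and 8.20 in C57 + MI and 4.47, 7.51 and 5.81 in C57 + sham. Esr1 was at 17.5, 15.6 and 18.4 CPM in C57 + MI, against 11.2, 9.89 and 5.56 CPM in C57 + sham (log2 fold change 0.99, SE 0.28, adjusted p = 0.00902). In TPM it overlapped, at 3.28, 2.87 and 3.5 in C57 + MI and 4.12, 4.21 and 1.73 in C57 + sham. Nr5a2 did not pass without C57 + MI replicate 3 or C57 + sham replicate 1 (0.58 to 0.70 on the log2 scale, adjusted p = 0.0554 to 0.105). It also failed with total counts in place of TMM (0.15, adjusted p = 0.617), with a minimum mean count of 50 (0.49, adjusted p = 0.115), with limma on log2(TPM + 0.5) (0.15, adjusted p = 0.634) and with limma on log2(TPM + 0.1) (0.16, adjusted p = 0.636). Esr1 did not pass with total counts in place of TMM (0.34, adjusted p = 0.308), with a minimum mean count of 50 (0.67, adjusted p = 0.0559), with limma on log2(TPM + 0.5) (0.02, adjusted p = 0.954) and with limma on log2(TPM + 0.1) (0.04, adjusted p = 0.930).

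Among xenobiotic and bile acid receptors, Nr1i3 was at 141, 40.6 and 79.3 TPM in C57 + MI livers, against 454, 409.9 and 569.9 TPM in C57 + sham livers (log2 fold change -1.71, SE 0.37, adjusted p = 0.00208). The groups were far apart, and Tomm40l, which overlaps it, was also lower (log2 fold change -1.44, SE 0.36, adjusted p = 0.00445). Nr1h5 was at 0.820, 0.510 and 0.880 TPM in C57 + MI, against 2.51, 2.06 and 3.19 TPM in C57 + sham (log2 fold change -1.22, SE 0.39, adjusted p = 0.0187). It did not pass without C57 + MI replicate 2 or C57 + sham replicate 3 (-1.10 to -0.95 on the log2 scale, adjusted p = 0.0545 to 0.126). Nr1h4, which had risen at 1 day in LC livers, was at 182, 98.0 and 150.4 TPM in C57 + MI, against 154, 226 and 293 TPM in C57 + sham, and overlapped (log2 fold change -0.01, adjusted p = 0.982). Of 17 PXR and CAR targets, 8 were higher and 4 lower, of 6 FXR targets 2 were higher and 2 lower, and of 12 LXR targets 2 were higher and 4 lower. Over all genes tested, 34.3% were higher and 32% lower.

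Rara, Rarg, Rxrg and Thra were lower after MI, and Rarb and Thrb did not pass. Thra was at 4.59, 2.28 and 2.55 TPM in C57 + MI livers, against 39.6, 38.3 and 40.1 TPM in C57 + sham livers (log2 fold change -3.02, SE 0.28, adjusted p = 1.1e-05). Its neighbour Nr1d1 was lower too (log2 fold change -1.86, SE 0.38, adjusted p = 0.00149). Rara was at 13.2, 7.68 and 6.11 TPM in C57 + MI, against 33.5, 30.1 and 43.2 TPM in C57 + sham (log2 fold change -1.33, SE 0.28, adjusted p = 0.00186). Rarg was at 3.01, 2.84 and 3.26 TPM in C57 + MI, against 21.0, 17.3 and 8.22 TPM in C57 + sham (log2 fold change -1.72, SE 0.31, adjusted p = 0.000678). None of these 3 overlapped between groups. Rxrg was at 2.86, 1.04 and 1.78 TPM in C57 + MI, against 9.47, 6.22 and 8.29 TPM in C57 + sham (log2 fold change -1.49, SE 0.40, adjusted p = 0.00751), and rested on 17, 16 and 23 estimated counts in sham. Ppard was at 5.05, 4.07 and 4.53 TPM in C57 + MI, against 13.1, 10.3 and 12.6 TPM in C57 + sham (log2 fold change -0.77, SE 0.21, adjusted p = 0.00848). It did not pass with a mean of at least 50 in sham libraries (-0.46, adjusted p = 0.0836). Of 13 retinoid genes 5 were higher and 2 lower, and of 11 thyroid hormone genes 4 were higher and 3 lower (34.3% and 32% over all genes).

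COUP-TFs, which also mark stromal and endothelial cells, were lower by several fold. Nr2f2 was at 5.80, 5.14 and 6.28 TPM in C57 + MI livers, against 56.3, 49.0 and 45.5 TPM in C57 + sham livers (log2 fold change -2.54, SE 0.19, adjusted p = 5.0e-06). Nr2f1 was at 0.520, 0.280 and 0.330 TPM in C57 + MI, against 5.30, 4.56 and 4.25 TPM in C57 + sham (log2 fold change -3.12, SE 0.39, adjusted p = 5.9e-05), from 13, 18 and 16 estimated counts in sham. Neither gene overlapped between groups, but Nr2f1 had passed the count filter through sham livers alone. In the same libraries stellate cell markers were lower, as given above, and sinusoidal endothelial markers summed to 94.9 to 101 TPM in C57 + MI, against 188 to 304 TPM in C57 + sham, with 5 of 14 lower and 1 higher. Their part in this was not tested. Nr2c2 was at 0.570, 0.870 and 0.960 TPM in C57 + MI, against 3.28, 1.54 and 3.54 TPM in C57 + sham (log2 fold change -0.89, SE 0.36, adjusted p = 0.0450), and its groups overlapped in CPM. It did not pass without C57 + MI replicate 1 or C57 + sham replicate 1 or 3 (-0.76 to -0.57 on the log2 scale, adjusted p = 0.0892 to 0.258), nor with no filter on low counts (-0.74, adjusted p = 0.0945) and in DESeq2 (-0.91, adjusted p = 0.0616). Nr6a1, which encodes germ cell nuclear factor, was at 1.43, 1.22 and 1.49 TPM in C57 + MI, against 5.05, 2.56 and 3.24 TPM in C57 + sham (log2 fold change -0.77, SE 0.30, adjusted p = 0.0422). It did not pass without C57 + MI replicate 2 or 3 or C57 + sham replicate 1 or 3 (-0.87 to -0.40 on the log2 scale, adjusted p = 0.0575 to 0.239), nor with no filter on low counts (-0.61, adjusted p = 0.101), in DESeq2 (-0.79, adjusted p = 0.0568) and with the MI libraries thinned to the sham depth (-0.87, adjusted p = 0.0554).

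The estrogen-related receptor genes Esrra and Esrrg were lower, with Esrra at 15.6, 6.81 and 8.27 TPM in C57 + MI livers, against 27.6, 40.5 and 41.2 TPM in C57 + sham livers (log2 fold change -1.18, SE 0.30, adjusted p = 0.00547). Of its 10 targets, 6 were higher and 1 lower. Esrrg had 9, 0 and 0 estimated counts in C57 + MI and 7, 4 and 5 in C57 + sham (log2 fold change -3.39, SE 1.03, adjusted p = 0.0135), and did not pass without C57 + sham replicate 1 (-2.89 on the log2 scale, adjusted p = 0.0829). Hnf4g, an intestinal HNF4, had 3, 7 and 3 estimated counts in C57 + MI and 4, 10 and 5 in C57 + sham (log2 fold change -3.10, SE 0.58, adjusted p = 0.000851). Nr4a2, an immediate early receptor, had 2, 2 and 8 estimated counts in C57 + MI and 7, 5 and 5 in C57 + sham (log2 fold change -3.09, SE 0.68, adjusted p = 0.00218). For these 3 genes both groups held few counts, of like size, while the MI libraries held far more counts in all, so their level relative to the library was lower in MI. All 3 passed the count filter through sham livers alone, so they could be called lower but not higher.

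Ppara was at 21.5, 15.8 and 19.8 TPM in C57 + MI livers, against 21.7, 29.0 and 37.1 TPM in C57 + sham livers, and did not pass (log2 fold change 0.03, adjusted p = 0.903). Of 22 PPARα targets, 14 were higher and 3 lower at 12 hours, with a median of 1.20 against 0.11 over all genes. Fgf21 was at 23.0 ± 8.22 CPM in C57 + MI and 1.17 ± 1.7 CPM in C57 + sham (SD, n = 3 each; log2 fold change 4.05, adjusted p = 0.000199). Of 7 PPARγ targets 5 were higher and 1 lower. HNF4α targets were higher in 11 of 22 and lower in 2, beside Hnf4a itself (hepatocyte markers were higher in the same libraries, as given above), and LRH-1 targets were lower in 5 of 7 and higher in 0 (0 at an unadjusted p under 0.05). Of 12 coactivators 4 were higher and 5 lower, of 11 corepressors 5 and 3, and of 13 immediate early genes 7 were higher and 0 lower (0 unadjusted). Beside all these list counts, 34.3% of all genes were higher and 32% lower. Ncor1, the main corepressor of unliganded receptors, was at 91.0 ± 25.5 CPM in C57 + MI and 869 ± 239 CPM in C57 + sham (log2 fold change -3.26, adjusted p = 1.3e-05). In LC livers at 1 day, Ncor1 was not called after MI. Its interaction at 1 day did not pass by edgeR (difference in log2 fold change -0.22, SE 0.20, adjusted p = 0.479). For its lower level at 12 hours, depth and library makeup cannot be told apart from the operation. The other 12 tested receptors, beside Ppara, did not pass, and Vdr, Esrrb, Pgr and Nr4a3 were not tested, with at most 11, 11, 5.77 and 2.02 estimated counts in any liver.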

How the data were processed

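Livers of 18 male mice were studied, 3 per group. Per the labels and the study's methods, libraries were made with a TruSeq kit, and the submitters' processing notes name TopHat2, HISAT2 2.1.0, Bowtie2 2.2.3, DESeq2 and the mm9 build, without saying which step or table each served. The deposited 1 day values are whole read counts per gene. For 12 hours the authors deposited estimated counts (rounded here for testing), TPM and FPKM. FPKM, scaled by the authors for transcript length and library size, was not used. Columns of the authors' own comparisons were not used.

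edgeR 4.0.16 (R 4.3.3) fitted the 12 livers of 1 day and, separately, the 6 livers of 12 hours, by quasi-likelihood with TMM factors after filterByExpr (minimum count 10, minimum total 15). Benjamini-Hochberg adjustment ran over all genes tested, and a call is an adjusted p under 0.05 at any fold change. edgeR estimated biological coefficients of variation of 0.209 (1 day) and 0.240 (12 hours). limma 3.58.1 and DESeq2 1.42.0 served as alternatives, beside other scalings, filters and fits and leaving out each liver. The scripts were tested on simulated counts.

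The receptors and the gene lists were chosen with earlier results of these data known. Each receptor is named with its values, and genes named from a list are among its 4 with the smallest p in that comparison. Some genes belong to several lists, such as Cd36 (PPARα and PPARγ) and Abcg5, Abcg8 and Cyp7a1 (LXR and LRH-1). Counts of different lists are therefore not independent. Promoters are from RefSeq on GRCm38.p6, which is not the build named for the files, and exon overlaps are from GENCODE M21. Labels give flash frozen tissue and the methods RNAlater.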

Additional observations from a re-analysis of the deposited data

Results flagged for a closer look

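For 8 receptors, the response to MI at 1 day differed between HMRKO and LC livers by the interaction term of the edgeR fit over 12 livers. A negative value means a lower response in HMRKO. The difference in log2 fold change was -1.58 (SE 0.28, adjusted p = 0.00787) for Nr1i3, -1.20 (SE 0.24, adjusted p = 0.0112) for Esrra, -1.93 (SE 0.37, adjusted p = 0.010) for Nr1h5 and -1.10 (SE 0.27, adjusted p = 0.0215) for Ppard. It was -1.20 (SE 0.30, adjusted p = 0.0219) for Rxrg, 1.48 (SE 0.37, adjusted p = 0.0215) for Nr2c2, -1.45 (SE 0.37, adjusted p = 0.0230) for Rara and -1.06 (SE 0.31, adjusted p = 0.0381) for Rarb. Nr2c2 alone among the 8 was positive. For Nr1i3 the responses had opposite signs and both passed. The calls for Esrra, Nr1h5 and Nr1i3 passed with each liver left out in turn, and the other 5 each lost the call without at least 1 liver, as given with their values above.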

How the results depend on the processing

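Of the values for single receptors under the alternatives, 769 kept their direction and their call, 114 kept their direction and lost the call, and 0 reversed. Alternatives that left a receptor untested are not among these values. At 12 hours Esrrg had 10 alternatives and Hnf4g and Nr4a2 had 12 each, against 18 for Hnf4a. Receptor calls between sham groups numbered 1, against 0 with total counts in place of TMM, 0 in a fit of the 2 groups alone, 2 with no filter, 2 in DESeq2 and 0 to 1 with a liver left out. For LC + MI against LC + sham they numbered 2, against 4 in DESeq2, 1 in a fit of the 2 groups alone and 0 to 3 with a liver left out, the lowest without LC + MI replicate 3. With a liver left out they ranged from 10 to 11 for HMRKO + MI against LC + MI, from 11 to 14 for HMRKO + MI against HMRKO + sham, from 4 to 9 for the interaction, the lowest without LC + sham replicate 2 or HMRKO + sham replicate 3, and from 15 to 20 at 12 hours. A mean of at least 50 in sham libraries, chosen after seeing the data, left 11 calls at 12 hours, 5 higher and 6 lower. Over the settings run, the share of all tested genes called ran from 1.21% to 7.67% for LC + MI against LC + sham. It ran from 17.5% to 35.9% for HMRKO + MI against LC + MI and from 24.9% to 49.4% for HMRKO + MI against HMRKO + sham. Between sham groups it ran from 0% to 0.345%, for the interaction from 6.76% to 19.8% and at 12 hours from 48.3% to 73.1%. The causes were not tested. Between livers with the same replicate number, deviations from the group mean correlated at -0.171 to 0.182 at 1 day and -0.089 to 0.024 at 12 hours. Between livers with different numbers they correlated at -0.227 to 0.179 and -0.073 to 0.117. With 3 livers per group these values cannot exclude that the numbers pair livers. With the replicate block, calls numbered 3 for LC + MI against LC + sham, 11 for HMRKO + MI against LC + MI, 11 for HMRKO + MI against HMRKO + sham, 0 between sham groups, 7 for the interaction and 18 at 12 hours. The block lost Thrb between MI livers, Nr1h3, Hnf4a, Nr5a2 and Pparg within HMRKO, and Pparg between sham groups. It also lost the Rarb interaction and, at 12 hours, Nr2c2 and Nr6a1 (edgeR, adjusted p = 0.0528 to 0.0697 for all of these). At 12 hours the sham depth limits receptors with few counts.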
